A study of Mus musculus with 6 samples.

Results

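The 10 genes described here belong to the interleukin-6 (IL-6) family and its STAT3 pathway. They are the cytokine genes Il6, Lif, Il11 and Osm, the receptor genes Il6ra, Il6st, Lifr and Osmr, the transcription factor gene Stat3 and the feedback inhibitor gene Socs3. They were taken by gene symbol from a table of 23518 genes, and all 10 were found in it and passed the filter on low values. RNA was sequenced from mouse ear skin 1 day after a cream with imiquimod, an agonist of Toll-like receptor 7 that brings on psoriasis-like inflammation, was put on the ears. Wild-type mice (WT, 3 samples) were compared with mice labelled HdR (3 samples), which the series' design text describes as lacking the RING1 domain of HOIL1. All samples received imiquimod, so no value here describes untreated skin, and the labels give no strain, age or sex and do not say how the allele was made or in which cells it acts. HOIL1 is the product of Rbck1 and a subunit of the linear ubiquitin chain assembly complex, which takes part in NF-kB signalling downstream of the TNF receptor.

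Cytokines of this family bind a receptor chain of their own and share gp130, the signalling chain encoded by Il6st. IL-6 and IL-11 use a dedicated alpha chain and a pair of gp130 chains, LIF uses gp130 with the LIF receptor, and mouse oncostatin M mainly uses gp130 with the oncostatin M receptor. The bound receptors activate JAK kinases, which phosphorylate STAT3, and STAT3 induces Socs3, whose protein binds gp130 and JAK and ends the signal. In skin the pathway is known for its part in keratinocyte proliferation, wound repair and psoriasis. Transcript levels do not show phosphorylation, so the activity of STAT3 was not measured here.

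Levels are normalised coverage, in aligned bases of a gene per Mb of scaled library. The libraries held the equivalent of 14.8 M to 19.9 M read pairs of 300 bases, and 1 base per Mb stood for 11.7 to 23.6 pairs. Numbers of pairs are throughout aligned bases divided by 300 and not counted pairs. Rbck1 read 66.6, 55.1 and 64.1 bases per Mb in WT and 23.9, 13 and 19.7 in HdR, so the genotype labels and this gene's level went together. The keratinocyte markers Krt5 (1210 to 2230 bases per Mb over all libraries) and Krt14 (2190 to 4530) were high in every library. Each change is the HdR mean less the WT mean of log2(bases per Mb + 1), a scale that understates the change of low genes. Changes were tested with limma over 15049 genes, the p-values being adjusted by the Benjamini-Hochberg method over all of them. Changes across the table depended on transcript length: the median change was 0.64 in the shortest decile of the tested genes and -0.58 in the longest. The ribosomal RNA gene Rn45s took 0.102% to 0.119% of bases in WT and 0.368% to 1.54% in HdR, most in HdR replicate 2, and its part in the results was not tested. A second, length-corrected value is therefore given for the members, from a fit in which each library's trend with length was taken out. Genotype and length trend cannot be told apart in these 6 libraries.

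In HdR skin Il6 and Osm were higher, Il6st was lower, and the other 7 genes did not pass the test. So 2 of 10 members were higher, beside 12.7% of all genes tested, and 1 of 10 was lower, beside 17.9%. The median change of the members was 0.047, against -0.125 over all genes tested. After length correction 1 member was higher (Il6, where 10.9% of genes were called higher) and 0 were lower (8.48%). At an unadjusted p under 0.05 limma gave 3 higher and 1 lower as scaled, and 4 higher and 0 lower length-corrected. The share of all genes at that unadjusted cutoff was not counted, so these counts have no background beside them. At the adjusted threshold the members' shares are near the background, so the findings below concern single genes and not the family. With the replicate numbers as a block, a pairing that the labels do not state, 3 members were higher (background 18.3%) and 2 lower (27.2%). Socs3 and Il6ra were the ones added.

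**Figure D1:**
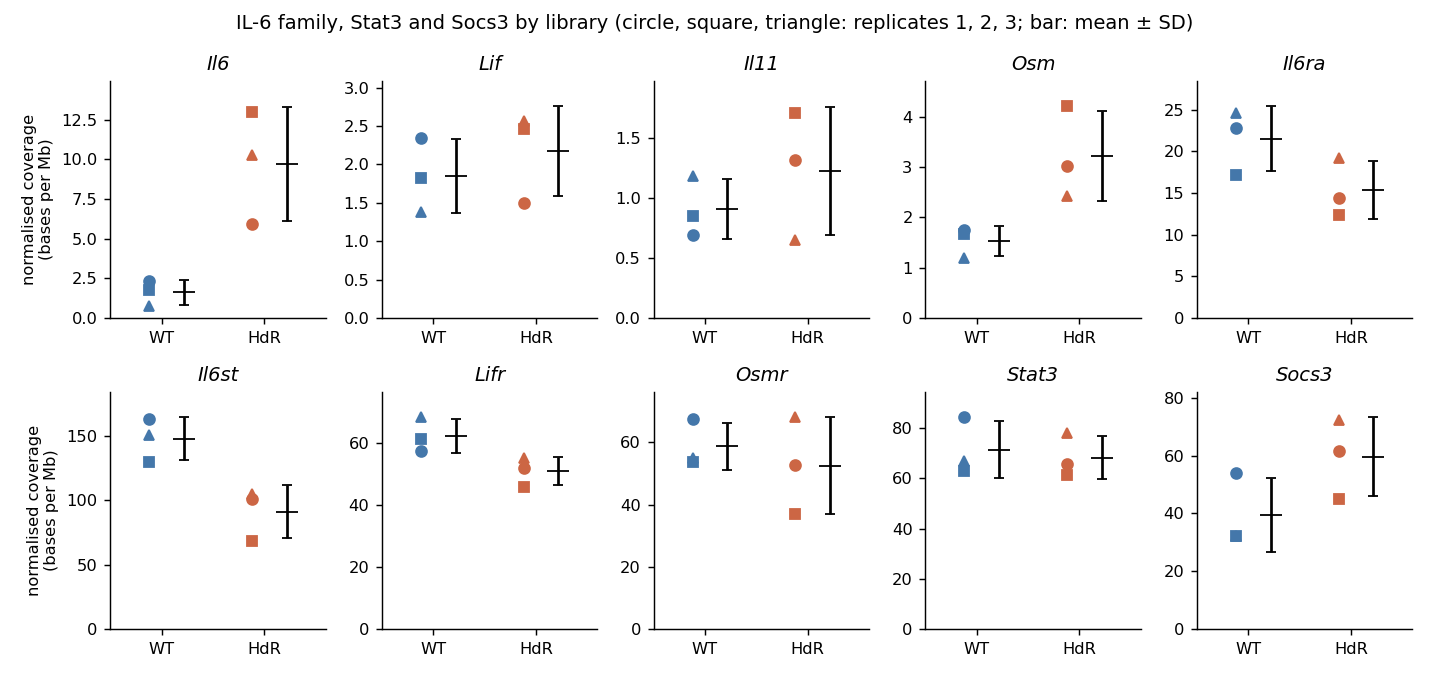
Normalised coverage (bases per Mb, axes from 0) of the 10 genes in the 3 WT and 3 HdR libraries, with the mean ± SD of each genotype. Il6 and Osm in HdR lie above all WT libraries, Il6st and Lifr in HdR lie below them, and the genotypes overlap for the other 6 genes.

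Il6 had the largest change of the 10. It encodes IL-6, a cytokine induced by NF-kB in keratinocytes, fibroblasts and macrophages. Its coverage was 2.32, 1.78 and 0.791 bases per Mb in WT and 5.9, 13 and 10.3 in HdR. The lowest HdR library was thus above the highest WT library, and WT replicate 3 and HdR replicate 1 were the low ones of their groups. These levels rest on bases equal to 18.7 to 45 read pairs in WT and 96.3 to 152 in HdR. The means, 1.63 ± 0.775 and 9.74 ± 3.59 bases per Mb (SD, n = 3), differed 5.98-fold, and the log2 change was 2.02 (SE 0.32; limma adjusted p = 0.00782; 95% interval 1.30 to 2.73). The length-corrected change was 1.96 (limma adjusted p = 0.0119). The longest annotated Il6 transcript has 2343 nt and the principal one 1141 nt, and with the lengths of principal transcripts the corrected change was 1.59 (limma adjusted p = 0.017).

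Il6 (ENSMUSG00000025746.11) lies on chromosome 5 at positions 30013114 to 30019981 of GRCm38, plus strand. Its promoter is shown because the study concerns NF-kB and the Il6 promoter carries a known NF-kB site. The stretch covers the 250 bases before the start site, chr5:30012864-30013113, from RefSeq on GRCm38.p6, and capitals mark the match to the NF-kB motif.
Il6: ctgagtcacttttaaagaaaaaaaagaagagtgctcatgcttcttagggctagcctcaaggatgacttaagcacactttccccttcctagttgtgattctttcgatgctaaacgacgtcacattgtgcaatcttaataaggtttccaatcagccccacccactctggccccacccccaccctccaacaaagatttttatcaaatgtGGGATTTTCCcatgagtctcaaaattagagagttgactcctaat

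The match lies 44 to 35 bases before the start. Of the members, 9 had promoters in the RefSeq table, 11 in all, each read over 300 bases on both strands. The NF-kB motif was found in 2 of these 11 promoters, those of Il6 and Lif, and in 8.46% of all 32851 promoters. The STAT motif TTCNNNGAA was found in 1, that of Socs3, and in 8.3% of all promoters. Both matches below also read as matches on the other strand. The Lif stretch, chr11:4257380-4257409 on the plus strand, is shown because Lif has the same motif as Il6 and a level that did not pass the test. The Socs3 stretch, chr11:117969502-117969531, written along the minus strand, is shown as the match to the pathway's own factor.
Lif: atcaagtacaGGGACGCCCCctccccacac
Socs3: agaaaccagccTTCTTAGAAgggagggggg
A match describes letters in this window and not binding, which was not measured.

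Osm encodes oncostatin M, a product mostly of neutrophils, macrophages and T cells that acts on keratinocytes and fibroblasts. It read 1.74, 1.67 and 1.19 bases per Mb in WT and 3.02, 4.2 and 2.43 in HdR. All HdR libraries were above all WT libraries, on 28 to 49.3 read pairs per library. The mean rose 2.1-fold, from 1.53 ± 0.302 to 3.21 ± 0.9 bases per Mb (SD, n = 3; log2 change 0.72, SE 0.21, limma adjusted p = 0.0348). Its length-corrected change was 0.65 and did not pass (limma adjusted p = 0.0589), though it did with the replicate block added to that fit (limma adjusted p = 0.0427). Leaving out WT replicate 1 (limma adjusted p = 0.0958), WT replicate 3 (0.12), HdR replicate 1 (0.0683) or HdR replicate 2 (0.0912) also ended the call.

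Lif and Il11 were low and did not pass. Lif encodes leukemia inhibitory factor and lies 16530 bases from Osm on chromosome 11. Lif read 2.35, 1.82 and 1.38 bases per Mb in WT and 1.5, 2.46 and 2.56 in HdR, with overlapping genotypes (log2 change 0.15, 95% interval -0.34 to 0.65; limma adjusted p = 0.606). Il11, the gene of a cytokine linked to fibroblast activation, read 0.693, 0.849 and 1.18 across the WT libraries and 1.32, 1.71 and 0.653 across the HdR libraries (log2 change 0.20, 95% interval -0.31 to 0.71; limma adjusted p = 0.501). It rested on 9.48 to 27.8 read pairs per library. The ratio of Osm to Lif bases within a library does not depend on scaling, though it does on the length trend. It was 0.741, 0.918 and 0.862 in WT and 2.01, 1.71 and 0.948 in HdR, just without overlap, a description chosen after the values were seen and not tested. Length-corrected, the changes of Osm and Lif were 0.65 and 0.44, closer together than as scaled.

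All 4 receptor genes had lower mean coverage in HdR, and of these Il6st passed. Il6st, encoding gp130, read 163, 130 and 151 bases per Mb in WT and 101, 68.1 and 105 in HdR. The groups did not overlap, and HdR replicate 2 was the lowest library. The mean fell from 148 ± 16.8 to 91.5 ± 20.4 bases per Mb (SD, n = 3; log2 change -0.71, SE 0.20, limma adjusted p = 0.0308). The length-corrected change was -0.16 (95% interval -0.50 to 0.18; limma adjusted p = 0.454). The call was also lost without WT replicate 1 (limma adjusted p = 0.126), WT replicate 3 (0.0872), HdR replicate 1 (0.0528) or HdR replicate 2 (0.058).

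Il6ra, the gene of the IL-6-binding alpha chain, read 22.8, 17.1 and 24.6 across the WT libraries and 14.4, 12.4 and 19.2 across the HdR libraries, with overlap (log2 change -0.47, limma adjusted p = 0.118). It passed with the replicate block (limma adjusted p = 0.0287). Lifr, encoding the LIF receptor, read 57.5, 61.2 and 68.3 across the WT libraries and 51.9, 45.9 and 55 across the HdR libraries. Its genotypes did not overlap, yet the change of -0.29 did not pass (limma adjusted p = 0.17). Osmr, encoding the oncostatin M receptor and 215644 bases from Lifr on chromosome 15, read 67.4, 53.8 and 54.9 across the WT libraries and 52.7, 36.8 and 68 across the HdR libraries. HdR replicate 3 was the highest Osmr library and HdR replicate 2 the lowest (log2 change -0.19, limma adjusted p = 0.524). Length-corrected, Il6ra, Lifr and Osmr had changes of 0.083, 0.28 and 0.23, the opposite sign, and none passed (limma adjusted p = 0.713, 0.161 and 0.378). Over the members, all HdR libraries were above all WT libraries for 2 genes, beside 20.9% of the genes tested, and below them for 2, beside 30.7%.

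The receptor genes are also the long ones. The longest transcripts of Il6ra, Il6st and Lifr, 8639, 8678 and 9655 nt, lie in the longest decile of the tested genes, where 43.7% of genes were called lower and 1.74% higher. Osmr (5491 nt) and Stat3 (6042 nt) lie in the decile below it, with a median change of -0.46 and 31.8% called lower. Il6 and Socs3 (2552 nt) lie in the fourth decile, whose median change was -0.011, with 11.1% higher and 10.5% lower, and Osm (2272 nt) and Il11 (1949 nt) in the third, with a median of 0.13 and 14.6% higher. The change of Il6st (-0.71) lay near the median of its decile (-0.58), and that of Il6 lay far above the median of its own.

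**Figure D2:**
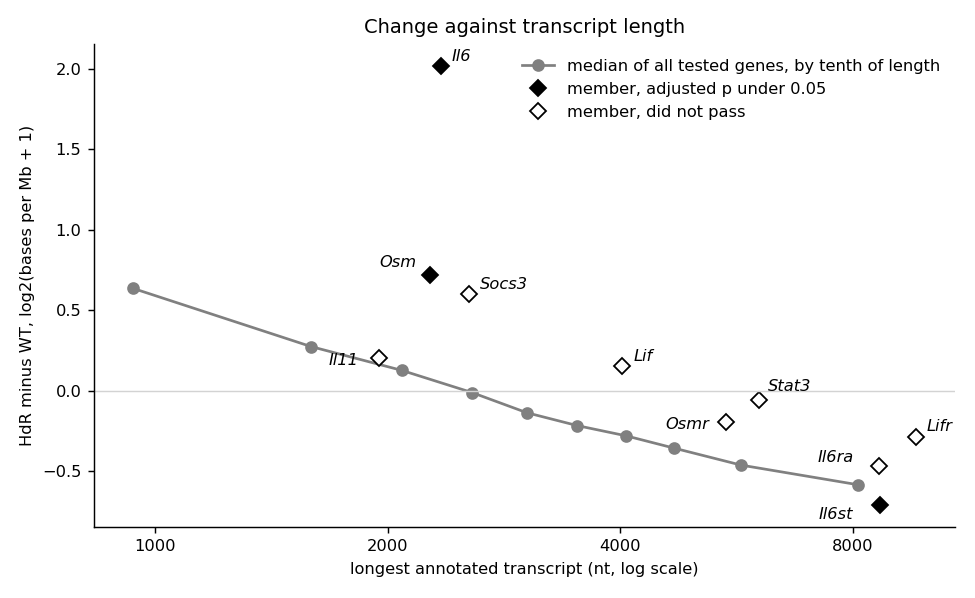
Change of each member (diamonds, filled where the limma adjusted p is under 0.05) against the length of its longest transcript (log axis), with the median change of all tested genes in each decile of length (grey line). Il6, at 2.02, stands far above the line, and Il6st, at -0.71, lies near it.

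Neither Stat3 nor Socs3 passed the test. Stat3 read 84.4, 62.8 and 67 bases per Mb in WT and 65.7, 61.3 and 77.9 in HdR, with overlap (log2 change -0.06, 95% interval -0.45 to 0.33; limma adjusted p = 0.81). Its length-corrected change was 0.40 and did not pass (limma adjusted p = 0.0811). Socs3 read 54.1, 32.2 and 32 across the WT libraries and 61.5, 45.1 and 72.2 across the HdR libraries. WT replicate 1 was above HdR replicate 2, the one overlap between the groups. The mean was 39.5 ± 12.7 in WT and 59.6 ± 13.7 in HdR (SD, n = 3; log2 change 0.60, SE 0.25), and this did not pass (limma adjusted p = 0.0933). It passed with the replicate block (limma adjusted p = 0.0361), and not after length correction (change 0.61, limma adjusted p = 0.1) or with both (limma adjusted p = 0.0512). The ratio of Socs3 to Stat3 bases within a library was 0.641, 0.513 and 0.478 in WT and 0.935, 0.735 and 0.927 in HdR. All HdR ratios were above all WT ratios, again as a description chosen after the values were seen. The ratio moves with the length trend: the changes of Socs3 and Stat3 were 0.60 and -0.06 as scaled, and 0.61 and 0.40 length-corrected.

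**Figure D3:**
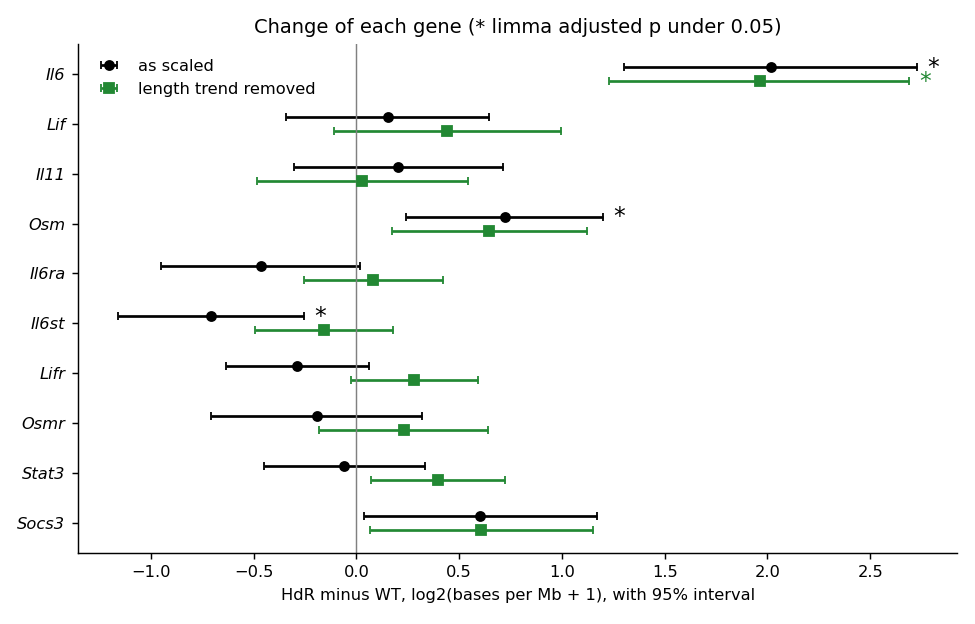
Change of each member, HdR minus WT, with its 95% interval, as scaled (circles) and length-corrected (squares). Asterisks mark a limma adjusted p under 0.05: Il6 carries it in both fits, Osm and Il6st as scaled.

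Per kb of the longest transcript, the receptors, Stat3 and Socs3 stood above the cytokines in WT skin, and in HdR skin Il6 stood among the receptors. Dividing by length does not remove the length trend. Its slope per doubling of length was 0.0404 to 0.247 in WT and -0.272 to -0.0805 in HdR. Shifts in this order between the genotypes cannot be told apart from that trend. In WT skin Il6st (17.1 ± 1.94 bases per Mb per kb), Socs3 (15.5 ± 4.97), Stat3 (11.8 ± 1.9) and Osmr (10.7 ± 1.37) led, each differing from the next by less than the larger SD of the pair. Lifr (6.46 ± 0.57) and Il6ra (2.49 ± 0.448) followed. Il6 (0.696 ± 0.331) and Osm (0.675 ± 0.133) did not differ beyond their spread by this length, nor did Il11 (0.465 ± 0.126) and Lif (0.459 ± 0.121). In HdR skin Socs3 led at 23.4 ± 5.36, and Il6, at 4.16 ± 1.53, stood above Il6ra (1.78 ± 0.406) and Osm (1.42 ± 0.396). With principal transcripts Il6 had 1.43 ± 0.679 (WT) and 8.54 ± 3.15 (HdR) against 6.43 ± 1.16 and 4.6 ± 1.05 for Il6ra, and in WT Il6 then stood above Osm by more than either SD. The ratio of Il6 to Il6ra bases within a library was 0.102, 0.104 and 0.0322 in WT and 0.408, 1.05 and 0.536 in HdR, also without overlap, and these genes differ in length too (length-corrected changes 1.96 and 0.083).

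The genes whose pattern over the 6 libraries was most like that of Il6, by Pearson r of log2 levels among 11731 genes, were Sod2 (r = 0.9952), Nrxn2 (0.9941), Slc25a33 (0.9935) and Cebpd (0.9916). For Il6, 231 genes had an r above 0.95. For Socs3, 12 had, led by Mettl22 (0.9841), Tnfaip3 (0.9811), Nfkbiz (0.9778) and Mat2a (0.975). Tnfaip3 encodes the ubiquitin-editing enzyme A20 and Nfkbiz an IkB family protein. Tnfaip3 read 50.5, 22.6 and 25.3 bases per Mb in WT and 50, 35 and 58.5 in HdR, so that, as for Socs3, WT replicate 1 was high and HdR replicate 2 low. These r values describe 3 WT and 3 HdR libraries, across which genotype, depth and length trend differ together. Tnfaip3 and Nfkbiz did not pass as scaled, and after length correction both did. The corrected change was 1.06 for Tnfaip3 (limma adjusted p = 0.031) and 0.73 for Nfkbiz (limma adjusted p = 0.0278). Both corrected calls were lost without HdR replicate 2 (limma adjusted p = 0.0647 and 0.0546). They held with lengths of principal transcripts (0.0413 and 0.0239).

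Other genes of the pathway were taken from 4 lists, in which 18 of 67 genes tested were called, 7 higher and 11 lower, shares near those of all genes (12.7% and 17.9%). The remaining IL-6 family genes showed little. Of 10 tested, 0 passed limma in either direction, nor did any at an unadjusted p under 0.05, and the median change was 0.069. Among those with the smallest p-values were Cntf (log2 change 0.40), Il11ra1 (0.32) and Ctf1 (-0.30). Il11ra1, the IL-11 receptor alpha chain gene, read 131 to 191 in WT and 174 to 211 in HdR. After length correction 1 was called lower, beside 8.48% of all genes: Ctf1, encoding cardiotrophin 1 (-0.67, limma adjusted p = 0.0449). In that fit the call was lost with lengths of principal transcripts (limma adjusted p = 0.0509) or without HdR replicate 2 (0.114). It held with the replicate block (0.0279). Cntf had the opposite sign after length correction (-0.072).

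Among 25 genes of JAKs, other STATs and their inhibitors 0 rose (1 at an unadjusted p under 0.05) and 8 fell by limma, beside 17.9% of all genes, with a median change of -0.465. Stat2, a transcription factor gene of interferon signalling, fell from 163 ± 9.37 to 68.4 ± 2.67 bases per Mb (log2 change -1.24, limma adjusted p = 0.00283). Ptpn11, encoding the phosphatase SHP2 that binds gp130, fell from 88.6 ± 22 to 40.8 ± 7.07 (-1.08, limma adjusted p = 0.0137), and Socs7 from 23.4 ± 10.4 to 8.19 ± 0.804 (-1.31, limma adjusted p = 0.0208). The kinase genes Jak1 (-0.69) and Tyk2 (-0.65), Stat6 (-0.72) and the STAT inhibitor gene Pias1 (-0.53) also fell. Length-corrected, 3 fell, beside 8.48% of all genes, Stat2 and Ptpn11 among them. In that fit 2 rose, Socs2 (0.70) and Pias2 (0.53), beside 10.9% of all genes. With the replicate block 13 fell, beside 27.2% of all genes. With total scaling 13 fell as well, where 4305 of 15040 genes were called lower. The number that fell was 2 without WT replicate 1, 3 without WT replicate 3 or HdR replicate 2, 4 with no filter, and 5 without HdR replicate 1 or 3. In that order, all genes called lower numbered 230, 746, 1139, 1127, 1775 and 2016, against 2701 in the main fit. Stat2 kept its call with any library left out, Ptpn11 lost it without WT replicate 1 (limma adjusted p = 0.0625), and Socs7 lost it in 4 of the 6 cases.

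Of 23 STAT3 target genes 7 rose, beside the 12.7% of all genes, and 1 fell, beside 17.9%, with a median change of 0.34. Cebpd, the gene of an acute phase transcription factor, rose from 43.7 ± 10.4 to 193 ± 79.6 bases per Mb (log2 change 2.06, limma adjusted p = 0.00571). Fos rose from 31 ± 2.91 to 84.5 ± 13.8 (1.41, limma adjusted p = 0.00357), Nfil3 from 11.9 ± 1.65 to 22.4 ± 2.68 (0.87, limma adjusted p = 0.0139) and Batf from 6 ± 3.54 to 19.7 ± 8.82 (1.61, limma adjusted p = 0.023). Myc, Junb and Hp, the haptoglobin gene, were the others (0.82, 0.68 and 0.66), and Lrg1 fell (-0.61). The call of Lrg1 was lost in 5 of 6 cases with a library left out (limma adjusted p 0.0592 to 0.157), with no filter (0.0681) and with quantile normalisation (0.0746). Cebpd and Fos kept theirs with any library left out, Nfil3 lost it without WT replicate 1 (limma adjusted p = 0.0648), and Batf in 4 of the 6 cases. Fos, Junb and Myc are also induced by many other signals. Length-corrected, 5 rose, Cebpd, Fos, Nfil3, Batf and Mcl1, beside 10.9% of all genes. Lrg1 fell (-0.96, limma adjusted p = 0.0262), beside 8.48%. With HdR replicate 2 also left out of that fit, Cebpd and Fos kept their calls. Nfil3 (limma adjusted p = 0.0568), Batf (0.143) and Lrg1 (0.0753) lost theirs. Without length correction, the count that rose was 2 without WT replicate 1. It was 3 without WT replicate 3 or HdR replicate 2 or with no filter, and 4 without HdR replicate 1 or with total scaling. Over all genes the higher calls numbered, in that order, 197, 607, 773, 1017, 1037 and 917, against 1904 in the main fit. Other canonical targets did not pass, among them Pim1 (0.23), Bcl3 (0.34) and Timp1 (0.079).

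**Figure D4:**
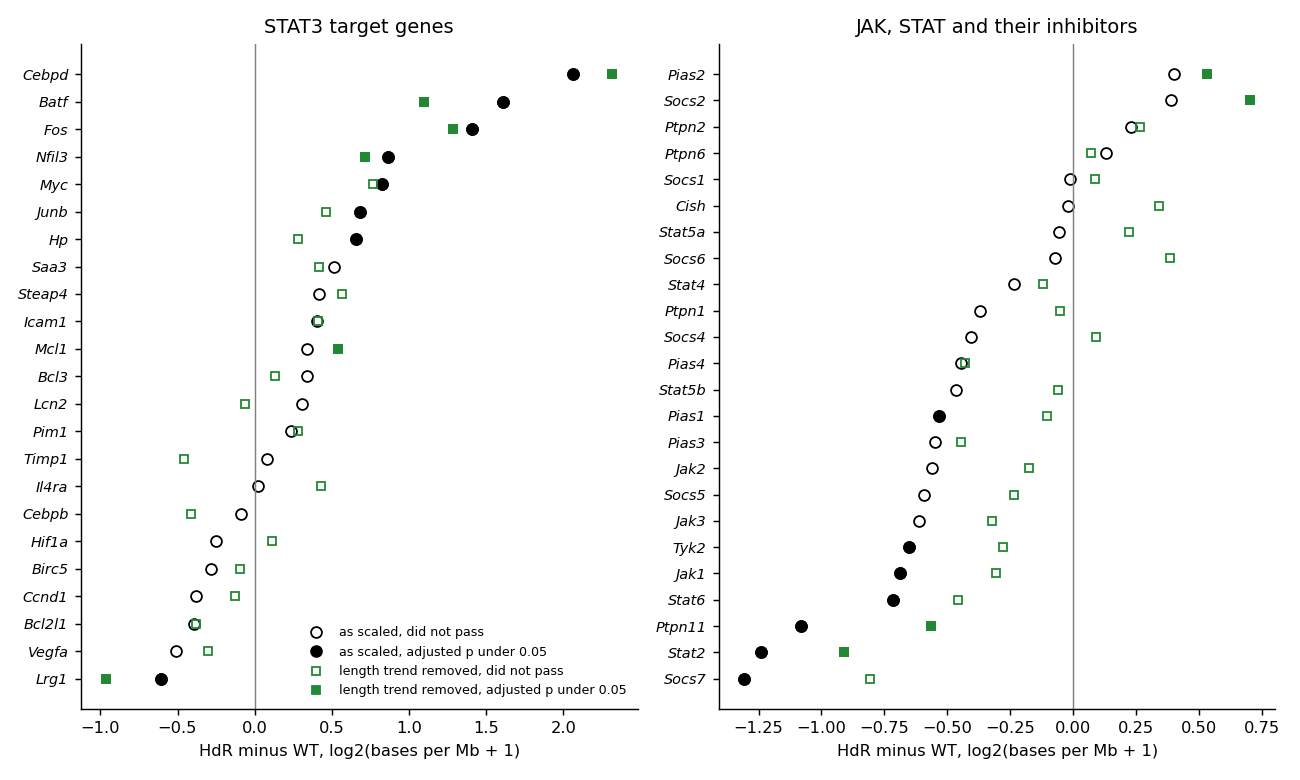
Change of each tested STAT3 target gene (left) and of JAK, STAT and inhibitor genes reported here (right), HdR minus WT, as scaled (circles) and length-corrected (squares), filled where the limma adjusted p is under 0.05. Cebpd (2.06) is highest on the left and Socs7 (-1.31) lowest on the right.

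Of 9 genes that shed the IL-6 receptor or set the stability of Il6 mRNA, 0 rose (0 at an unadjusted p under 0.05) and 2 fell by limma, a share near the 17.9% of all genes: Rc3h1, encoding Roquin-1, which promotes mRNA decay (-0.76, limma adjusted p = 0.017), and Rhbdf1 (-1.23, limma adjusted p = 0.0297). The sheddase genes Adam10 (-0.50) and Adam17 (-0.36) did not pass. With the replicate block Adam10 did (limma adjusted p = 0.0299), and 4 of the list fell, beside 27.2% of all genes. Zc3h12a, encoding Regnase-1, which cleaves Il6 mRNA, had a change of 0.043. After length correction 0 of the 9 rose or fell (1 lower at an unadjusted p under 0.05). The count that fell was 0 without WT replicate 1 or WT replicate 3 and 1 without HdR replicate 2 or with no filter. All genes called lower numbered, in that order, 230, 746, 1139 and 1127, against 2701 in the main fit.

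Many macrophage and neutrophil markers moved with Il6 and Osm, and T cell markers did not pass. Of 11 macrophage markers 6 rose (4 length-corrected), beside 12.7% of all genes (10.9% length-corrected), while Fcgr1 (-0.11) and Mertk (-0.34) did not pass. The summed level of the 11 was 1080 to 2040 bases per Mb in WT and 3060 to 3430 in HdR. Of 12 neutrophil markers 6 could be tested and 5 rose (5 length-corrected), the sum being 142 to 198 in WT and 700 to 3190 in HdR, mostly from S100a8 and S100a9, which keratinocytes also express. The granule gene Elane was at 0 in WT replicate 3, and Elane, Mpo, Camp, Ltf and Ly6g were at most 1.08 bases per Mb in any library, and Ngp at most 2.15. Of 6 T cell markers tested 0 passed limma (0 at an unadjusted p under 0.05, as after length correction), with sums of 29.8 to 56.1 in WT and 36.8 to 73.6 in HdR. Beside 17.9% of all genes lower, 3 of 8 keratinocyte markers fell (sums 11000 to 12700 and 8110 to 9750), as did 2 of 9 fibroblast markers (5370 to 7570 and 5670 to 7080) and 3 of 7 endothelial markers (105 to 128 and 54.5 to 92.7). Length-corrected, where 8.48% of genes were lower, 1 keratinocyte marker rose and 1 fell, 2 fibroblast markers rose (Dcn and Fbln1) and 1 fell, and 1 endothelial marker fell. Their part in the levels of the cytokine and receptor genes was not tested. In bulk skin, fewer cells of a type and less RNA per cell cannot be told apart.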

How the data were processed

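Per the labels' protocols, total RNA of ear skin was isolated with TRIzol and RNeasy kits, made into libraries with a NEBNext Ultra II kit and sequenced on a NovaSeq 6000. The build was GRCm38, per the submitters' processing notes; the sources used here name no aligner, counting method or strand setting. The deposited table holds a signal, summed aligned bases per gene: the whole numbers gather at multiples of 300, a pair of 150-base reads (10.2% of values under 3000, against 0.333% by chance), so they are not read counts and no count test was run.

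Columns were scaled by trimmed means of M values (30% and 5% trimmed). A gene was tested if 3 or more libraries reached 1 base per Mb. The test was limma 3.58.1 in R 4.3.3 (trend and robust options) on log2(value + 1), two-sided, threshold 0.05. Alternatives were other scalings, filters, pseudocount and threshold, array quality weights, the block and each library left out. The calling procedure was tested on simulated data with independent noise and no length trend, so that test does not bear on the trend. Removal of a built-in length trend was tested on separate simulated data. The length trend was fitted as a natural spline with 4 degrees of freedom over the log2 length of the longest GENCODE M21 transcript and removed from each library together with its mean deviation. Same-numbered libraries deviated together after removal of genotype means (r = 0.163, 0.416 and 0.366). The highest r of each WT library with an HdR library of another number was 0.159, -0.16 and 0.0976. Pair 1 was thus barely set apart. After removal of genotype means, the covariances of a WT library with the HdR libraries must cancel. A positive same-number r thus lowers the others, and the contrast between them is partly built in. The block pairs libraries by number, and the labels do not say that they were paired. Nothing says that samples are separate mice, so p-values measure the spread between samples.

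Members, lists and tests were chosen with earlier results of these data known. Named were all members, up to 4 genes of smallest p in each list and called genes where 5 or fewer moved one way; Zc3h12a, Pim1, Bcl3, Timp1 and the rest of the named called genes were chosen after their values were seen. Il31 and 2 marker genes were not analysed here, and some genes of the lists are counted but not reported here by name.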

Additional observations from a re-analysis of the deposited data

How the results depend on the processing

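Il6 was called higher under 17 of 17 alternatives, and under the 3 chosen after seeing the data (in the 17, limma adjusted p 0.000265 to 0.0341; change 1.76 to 2.31 with 1 library left out). Osm was called in 9 of its 16 and Il6st in 10 of 17. Each tally includes the threshold of 0.1, which a gene called at 0.05 in the main fit passes in any case. The 2 members called higher became 1 with total scaling, no filter, a filter at 5 bases per Mb (which removed Osm, Lif and Il11), the length trend removed, also with library means kept or without HdR replicate 2, and 1 to 2 with a library left out. The 1 member called lower became 2 with the replicate block, 3 with array quality weights (whose estimation stopped before convergence), 0 with no filter, 0 in all 5 fits with the length trend removed, and 0 to 1 with a library left out. Leaving out a library also took Il11 below the filter in 3 cases.

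Over all genes 4605 were called, and 2144 with no filter, 9752 with array quality weights, 2884 with the length trend removed, 2893 with library means kept, 2701 with principal transcripts, 813 without HdR replicate 2 as well, and 427 (without WT replicate 1) to 6016 (without WT replicate 2) with a library left out. The 18 calls in the pathway lists became 9 with no filter, 28 with the replicate block, 42 with array quality weights, 4 with the length trend removed and HdR replicate 2 left out, and 4 to 22 with a library left out. The calls were 1904 higher and 2701 lower, against 917 and 4305 with total scaling, which moved the median change of all genes from -0.125 to -0.41, and 2363 and 2084 with quantile normalisation. The replicate block gave 6843 calls.

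Changes were followed through every setting for the members, Rbck1, the genes named by the stated rule and those most like Il6 and Socs3. Other genes, such as Jak1, Myc, Zc3h12a, Pim1 and Timp1, and the markers were not followed in this way. Among the followed genes signs turned as below, none of them past the threshold. Lif was -0.059 with total scaling and -0.21 with array quality weights, Mettl22 -0.10 and Mat2a -0.11 with total scaling, and Mat2a -0.020 with quantile normalisation. With a library left out Osmr ran from -0.40 (without HdR replicate 3) to 0.035 (without HdR replicate 2) and Stat3 from -0.16 (without HdR replicate 3) to 0.069 (without WT replicate 1). Stat3 was 0.0049 with median-of-ratios scaling. With the length trend removed, with or without the replicate block, Il6ra was 0.083, Lifr 0.28, Osmr 0.23, Stat3 0.40 and Cntf -0.072. With library means kept Il11 was -0.076, Lifr 0.18, Osmr 0.12, Stat3 0.29 and Cntf -0.18. With principal transcripts Lifr was 0.29, Osmr 0.26, Stat3 0.33, Cntf -0.057 and Adam17 0.025. Without HdR replicate 2 and with the trend removed Il6ra was 0.15, Lifr 0.29, Osmr 0.38, Stat3 0.40 and Adam17 0.055. The last 3 kinds of fit were chosen after seeing the data. The causes were not tested. For the followed genes reported here, the replicate block changed no call beyond those given with the results, with these exceptions. It added Nfkbiz (limma adjusted p = 0.0432) and, with the length trend removed, Socs7 (0.0353) and Rhbdf1 (0.00403). Its effect on single genes that were not followed is not reported here.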
